A study of Mus musculus with 16 samples.

Results

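The E2F transcription factors and the Rb pocket proteins that bind them were followed in cochlear RNA through 10 genes, E2f1 to E2f8, Rb1 and Rbl1, taken by symbol from the 47729 genes with values in every library. All 10 passed the filter on low values, and 16994 genes in all were tested. Libraries were made from the sensory epithelium of mouse cochleae at postnatal day 4 (P4), freed of lateral wall, Reissner's membrane and spiral ganglia. Of the 16 libraries, input and IP gave 4 each in control and in damaged (DTR) cochleae. Input is RNA of the whole homogenate and IP is RNA pulled down from the same homogenate with an antibody to the HA tag of Rpl22, a ribosomal protein tagged only in cells that have undergone Cre recombination.

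Control cochleae came from GLAST-CreERT/+; Rpl22HA/+ mice (GLAST-RiboTag). DTR cochleae came from Lgr5DTR/+; GLAST-CreERT/+; Rpl22HA/+ mice, in which cells that express Lgr5 carry the human diphtheria toxin receptor from the Lgr5 locus. All mice of both genotypes thus carried the Cre and the tagged ribosomal protein. The study's methods give diphtheria toxin and tamoxifen at P1 to both genotypes, whereas the sample labels give no treatment for the controls. By the methods, then, the groups differ in the Lgr5 knock-in allele, which carries the receptor and EGFP, and not in the toxin. GLAST-Cre (driven from the Slc1a3 locus) marks greater epithelial ridge (GER) cells and inner phalangeal cells, so the tag, and with it the IP, is aimed at these cells. Each replicate was a pool of cochleae from several mice, and the labels do not say whether pools shared litters.

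E2F factors sit at the promoters of genes for DNA replication and mitosis. By textbook grouping E2f1, E2f2 and E2f3 are activators, E2f4, E2f5 and E2f6 are repressors, and E2f7 and E2f8 are atypical repressors that bind DNA without a DP partner. The pocket proteins Rb1, Rbl1 (p107) and Rbl2 (p130) bind E2Fs and hold their targets down until cyclin-dependent kinases phosphorylate them. In the inner ear these proteins are known for keeping hair cells and supporting cells out of the cell cycle.

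Since several E2F genes are themselves known E2F targets, the promoters of the members were searched for the E2F core in any of 4 forms on both strands. The forms were TTCCCGC, the form TTGGCGC, the form TTCGCGC and the form TTGCCGC, and a window may hold several. RefSeq promoters (GRCm38.p6, 250 bases before to 50 after the start site) were at hand for 7 of the 10 members, and E2f4, E2f5 and Rb1 had no entry. A core stood in promoters of 5 of the 7, namely E2f2, E2f3, E2f7, E2f8 and Rbl1, and in none for E2f1 and E2f6. E2f2 and E2f3 each had another promoter, and it held no core. The E2f2 promoter with a core has its start site at 136172274, before the start of the gene in GENCODE M21 (136172394). For comparison, 9.57% of all 32851 promoters held a core, as did 10.9% of the 27025 genes, and some genes have more than 1 promoter in the table. The stretches that hold a core are shown because they hold the letters that E2F proteins are known to read. They run from 5′ to 3′ on the gene's strand, and capitals mark each core, written as read on that strand.
E2f2, chr4:136172289-136172323, plus strand: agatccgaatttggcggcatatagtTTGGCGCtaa
E2f3, chr13:29986014-29986099, minus strand: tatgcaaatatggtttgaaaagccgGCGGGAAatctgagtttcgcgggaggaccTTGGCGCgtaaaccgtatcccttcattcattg
E2f7, chr10:110745191-110745378, plus strand: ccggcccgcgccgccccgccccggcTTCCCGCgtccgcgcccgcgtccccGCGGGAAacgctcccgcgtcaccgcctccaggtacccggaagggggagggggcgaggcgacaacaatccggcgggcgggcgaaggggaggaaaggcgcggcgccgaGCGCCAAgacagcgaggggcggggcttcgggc
E2f8, chr7:48881676-48881732, minus strand: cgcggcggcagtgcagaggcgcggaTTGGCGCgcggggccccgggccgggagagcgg
Rbl1, chr2:157204520-157204576, minus strand: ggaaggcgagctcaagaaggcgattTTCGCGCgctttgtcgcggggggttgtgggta
The E2f7 stretch held 3 cores, at −223, −198 and −92 bases from the start site, and E2f3 held 2, at −11 and 18. A match is a description of letters, not evidence of binding, and the absence of one says only that these letters are not in the window.

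Counted reads per library ranged from 28089836 to 41966310, so that 3 reads amount to 0.0715 to 0.107 CPM (counts scaled to the reads on genes of each library). The labels were checked on Lgr5, the gene that carries the toxin receptor. Its level was 59.0 to 66.1 CPM in control input and 11.2 to 19.6 CPM in DTR input, and 31.4 to 40 CPM in control IP against 8.13 to 11.3 CPM in DTR IP, with no overlap in either. Slc1a3, whose locus drives the Cre, was 274 to 303 CPM in control input and 218 to 264 CPM in control IP and thus was not enriched by the IP. Summed CPM of 4 macrophage markers (Cx3cr1, Csf1r, Cd68, C1qa) was 60.8 to 66.6 in control input and 9.55 to 15.7 in control IP, and that of 4 Schwann cell markers was 2200 to 4130 and 503 to 976, so RNA of these cells was lower in the IP but not absent. After damage the macrophage sum was 79.8 to 131 in DTR input and 21.2 to 31.1 in DTR IP. The Schwann cell sum was 1060 to 1770 and 378 to 586, and that of 8 supporting and GER cell markers went from 4490 to 7600 in control input to 2740 to 3380 in DTR input, and from 4660 to 4890 in control IP to 1820 to 2760 in DTR IP. Most of this last sum was Tecta, at 3140 to 5940 CPM in control input. In control IP against control input 3 of the 8 were called higher (37.5%, against 19.2% of all genes tested) and 2 lower (25%, against 20.5%). Their median log2 fold change there was −0.09, so these markers were not enriched by the IP as a set. After damage 6 of the 8 were called lower in input and 6 in IP, and Slc1a3 was called in neither. Markers of mesenchyme (4 genes) summed to 2610 to 2820 CPM in control input, 2670 to 3550 in DTR input, 1550 to 2100 in control IP and 2840 to 3240 in DTR IP, and 3 of the 4 were called as higher after damage in the IP. Against input, 3 of the 4 were called lower and none higher in control IP. In DTR IP none was called lower and 1 higher, so mesenchyme RNA was not lower there than in DTR input. Hair cell markers (7 genes) were at 558 to 706 CPM in control input, 525 to 644 in DTR input, 171 to 253 in control IP and 243 to 297 in DTR IP, where 2 of the 7 were called higher and 1 lower after damage. No marker of these lists was at 0 in all libraries of a group. The part of these shifts in the results below was not tested, and in bulk RNA fewer cells of a type and less RNA per cell cannot be told apart.

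E2f5 was the most abundant member per length of exon in all 4 groups, and it became the bulk of the E2F transcripts in the IP. Length here was that of all annotated exons of a gene, merged, and the order depends on it. In CPM not divided by length, E2f5 in control input (mean 46.4) lay below E2f4 (59.8), E2f6 (54.9) and Rb1 (54.1). In control input E2f5 (26 ± 2.19 CPM per kb of exon, SD, n = 4) and E2f4 (24.4 ± 1.84) overlapped. They were followed by E2f6 (9.69 ± 0.579) and Rb1 (8.99 ± 1.13), which overlapped as well. E2f3, E2f1, Rbl1 and E2f2 formed a lower tier between 3.25 and 1.57 CPM per kb in which each overlapped its neighbour. E2f8 (0.499 ± 0.0804) and E2f7 (0.302 ± 0.0711) came last and did not overlap each other. In DTR IP the order was headed by E2f5 at 179 ± 33.0 CPM per kb, followed without overlap by E2f4 at 44.7 ± 4.13 and E2f6 at 22.3 ± 3.73.

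As a share of the CPM per kb summed over the 8 E2F genes, E2f5 made up 37.8% ± 1.70 in control input, 60.5% ± 4.48 in DTR input, 56.1% ± 2.81 in control IP and 67.3% ± 3.76 in DTR IP (SD, n = 4 each). The share of E2f4 went the other way, with 35.4%, 22.6%, 23.1% and 17.1%. Its level did not follow this share, at 24.4, 26.7, 48 and 44.7 CPM per kb in the same groups. A share also falls when another gene rises. Together the repressors E2f4 and E2f5 held between 73.2% and 84.4% of the sum in the group means, and the activators E2f1 to E2f3 never exceeded E2f6 and E2f4 in level. The sum itself was 68.8 ± 2.75 CPM per kb in control input and 264 ± 36.9 in DTR IP.

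**Figure D1:**
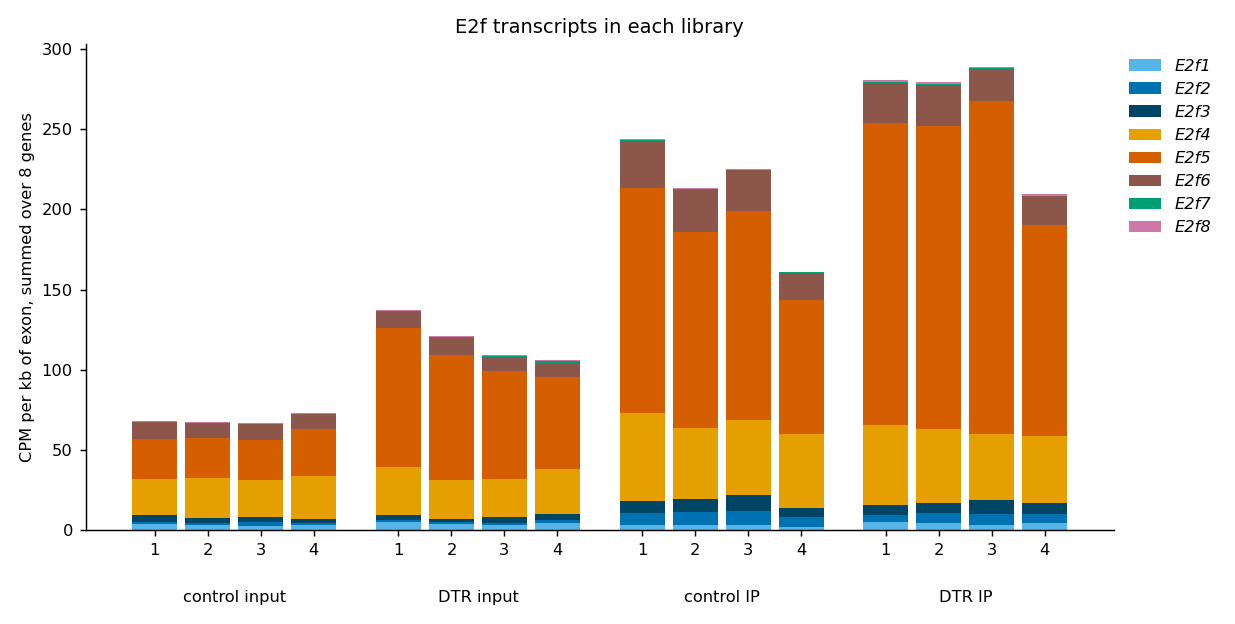
Stacked bars give the level of each E2F gene in each of the 16 libraries, as deposited CPM per kb of exon, ordered by group and replicate number. E2f5 takes the largest share in every IP and DTR input library, and the sum is lowest in control input and, within each IP group, lowest in replicate 4.

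The comparison of control IP with control input asks which transcripts are associated with ribosomes of GLAST-Cre+ cells over the level in the whole epithelium. It divided the family. E2f2 and E2f5 were more than 4-fold higher in the IP, E2f3, E2f4 and E2f6 were 1.96- to 2.48-fold higher, E2f1, E2f7 and E2f8 did not pass the test, and Rb1 and Rbl1 were lower. Thus 5 members were higher and 2 lower at an adjusted p under 0.05 (limma, Benjamini-Hochberg adjustment over all genes tested), where 19.2% of all genes tested were called higher and 20.5% lower. The median log2 fold change (LFC) was 0.64 over the members and 0 over all genes. LFC here is on the scale of log2(quantile-normalized CPM + 0.5).

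Among the activators, E2f2 (ENSMUSG00000018983, chr4:136172394-136196057) read 7.63, 6.59, 10.7 and 5.82 CPM in control input and 35.0, 39.3, 42.7 and 29.8 CPM in control IP. The groups were far apart, with the lowest IP library above the highest input library. Its LFC was 2.22 ± 0.22 (SE), the largest of the family, with an adjusted p of 2.5e-07. E2f3 (ENSMUSG00000016477, chr13:29906575-29986063) read 21.9, 17.4, 16.6 and 14.5 CPM in control input and 43.0, 44.4, 53.6 and 30.1 CPM in control IP, again without overlap, and its LFC was 1.23 ± 0.19 (adjusted p = 5.3e-05). E2f1 (ENSMUSG00000027490, chr2:154559407-154569892), the founding activator and an inducer of S phase, read 11.9, 9.23, 8.63 and 9.16 CPM in input and 10.4, 9.72, 10.1 and 6.87 CPM in IP. These groups overlapped, and the LFC was −0.02 ± 0.16 (adjusted p = 0.93).

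Of the repressors, E2f5 (ENSMUSG00000027552, chr3:14578641-14606309), which works mainly with Rbl2, read 44.0, 44.8, 44.5 and 52.2 CPM in control input and 250, 218, 232 and 149 CPM in control IP. Every IP library was well above every input library, although IP replicate 4 was lower than the rest. The LFC was 2.18 ± 0.16 (adjusted p = 6.2e-09). E2f4 (ENSMUSG00000014859, chr8:105297663-105305370), the main E2F of quiescent cells, read 55.4, 61.0, 57.3 and 65.6 CPM in input and 134, 108, 115 and 113 CPM in IP, with an LFC of 0.97 ± 0.099 (adjusted p = 4.2e-07). E2f6 (ENSMUSG00000057469, chr12:16810963-16839742), which represses with a Polycomb complex and needs no pocket protein, read 59.3, 51.9, 55.3 and 53.0 CPM in input and 166, 150, 144 and 96.2 CPM in IP, with an LFC of 1.31 ± 0.14 (adjusted p = 5.3e-07). For both genes the groups were apart, and for E2f6 IP replicate 4 again lay below the others.

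The atypical E2f7 (ENSMUSG00000020185, chr10:110745439-110787384) and E2f8 (ENSMUSG00000046179, chr7:48866429-48881596) were low throughout. E2f7 ranged from 2.17 to 3.46 CPM in control input and from 1.83 to 3.76 CPM in control IP, and E2f8 from 2.42 to 3.36 CPM and from 1.57 to 4.63 CPM. Their groups overlapped, with LFCs of 0.22 ± 0.25 (adjusted p = 0.53) and 0.32 ± 0.24 (adjusted p = 0.31). These values rest on 56 to 128 reads per control IP library for E2f7 and on 48 to 159 for E2f8.

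The pocket proteins went down in the IP. Rb1 (ENSMUSG00000022105, chr14:73183673-73325822), the retinoblastoma protein, read 58.6, 49.6, 47.1 and 61.1 CPM in control input and 39.9, 41.3, 36.5 and 22.8 CPM in control IP. The groups did not overlap, and the LFC was −0.65 ± 0.17 (adjusted p = 0.0052). Rbl1 (ENSMUSG00000027641, chr2:157145893-157204534) read 24.4, 15.6, 12.6 and 19.1 CPM in input and 10.8, 13, 7.52 and 7.23 CPM in IP. IP replicate 2 was just above input replicate 3, so the groups overlapped, but the IP was lower in 4 of 4 same-numbered pairs, and the LFC was −0.82 ± 0.20 (adjusted p = 0.0026). Rbl2, the third pocket protein and not one of the 10, moved with them, from 44.3 to 59.9 CPM in input to 27.2 to 35.9 CPM in IP (LFC −0.73 ± 0.14, adjusted p = 0.0003).

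Under the fold and separation criteria of the study for enrichment (LFC of at least 2, and the smallest normalized IP value over 1.5 times the largest input value), E2f2 and E2f5 were the members called, against 0.783% of all genes tested called higher and 0.465% lower. Deposited CPM did not overlap for E2f2 to E2f6, higher in the IP, and for Rb1, lower, as was so for 17.2% and 21.5% of all genes tested. Removing the trend of CPM with gene length or with GC content left all 7 calls in place. The IP ran against length. Over 5 equal bins of exon length, the median LFC of all genes was 0.0554 in the shortest and −0.141 in the longest, while the members' exon lengths ran from 1782 bases for E2f5 to 9009 bases for E2f7. Rb1 shares 488 bases of exon with Rcbtb2 and 408 with Lpar6 on the opposite strand, and E2f5 shares 26 bases with 1810022K09Rik. The strand setting of the counting is not given in the sources used here, and reads in those stretches cannot be told apart.

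**Figure D2:**
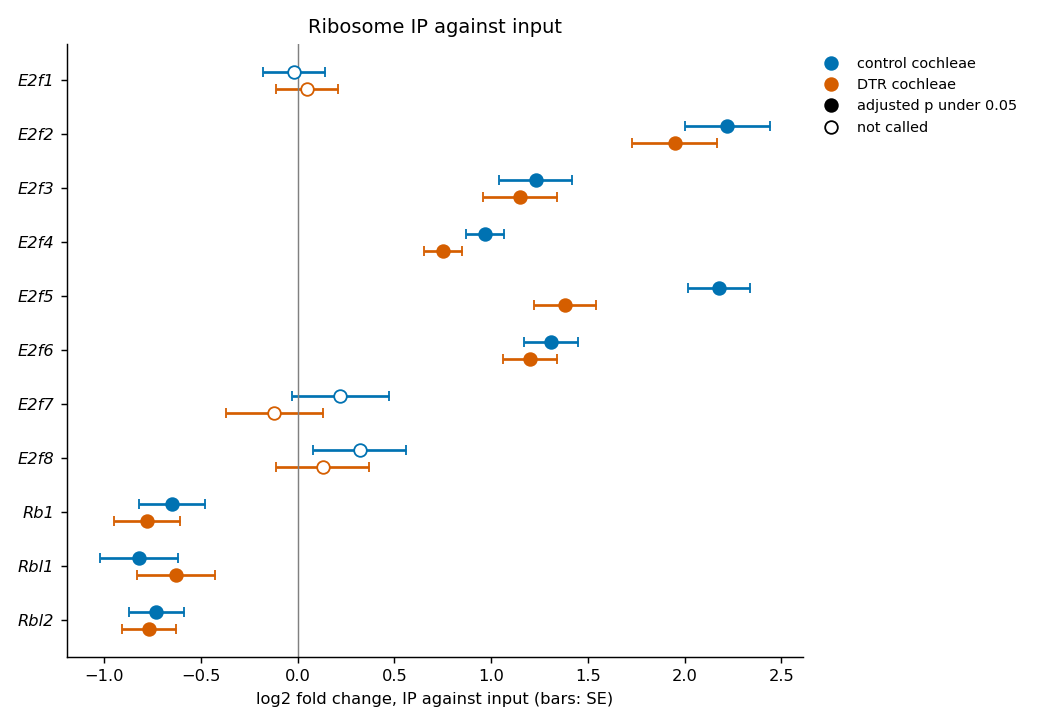
Points give the log2 fold change of IP against input for each member and Rbl2, in control (blue) and DTR (orange) cochleae, with bars for the SE and filled points for an adjusted p under 0.05. E2f2 to E2f6 lie to the right in both, the 3 pocket proteins to the left, and E2f1, E2f7 and E2f8 around 0.

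In the DTR cochleae the division was made by the same members. Of the 10 genes, 5 were higher in DTR IP than in DTR input and 2 lower (all genes tested: 18.9% higher, 20.5% lower, 39.4% in either direction, against 39.7% in the control cochleae). E2f2 had an LFC of 1.95 ± 0.22 (adjusted p = 1.5e-06), E2f5 of 1.38 ± 0.16 (2.1e-06), E2f6 of 1.2 ± 0.14 (1.9e-06), E2f3 of 1.15 ± 0.19 (0.00012) and E2f4 of 0.75 ± 0.099 (1e-05). Deposited values of these 5 genes did not overlap between DTR IP and DTR input, as was so for 16.7% of all genes tested higher and 16.2% lower. E2f2, for example, read 6.65, 4.70, 7.38 and 9.75 CPM in DTR input and 22.3, 30.3, 31.6 and 27.6 CPM in DTR IP. No member met the stricter criteria here (0.73% of all genes tested higher, 0.247% lower).

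Rb1 read 64.9, 56, 56.5 and 51.3 CPM in DTR input and 38.7, 43.5, 33.7 and 22.9 CPM in DTR IP, without overlap (LFC −0.78 ± 0.17, adjusted p = 0.0014). Rbl1 read 20, 20.4, 17.9 and 18.8 CPM in DTR input and 15.3, 14.5, 8.88 and 12.4 CPM in DTR IP, also without overlap (LFC −0.63 ± 0.20, adjusted p = 0.016). Without DTR IP replicate 3, its lowest library, the Rbl1 value was −0.48 and the adjusted p 0.064. E2f1, E2f7 and E2f8 had LFCs of 0.05 ± 0.16, −0.12 ± 0.25 and 0.13 ± 0.24 and did not pass.

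The comparison of DTR with control cochleae asks how the family responded when Lgr5+ cells were lost. E2f5 was higher in both RNA sources, by 2.68-fold in input and 1.54-fold in IP, and E2f7 was called higher in input only. The remaining 8 members passed the test in neither source. In input this makes 2 members called higher and none lower (all genes tested: 7.1% higher, 5.33% lower, 12.4% in either direction), and in IP 1 higher and none lower (all genes tested: 8.29% and 7.27%, 15.6% in either direction). The members' median LFC was 0.12 in input and 0.13 in IP, against −0.02 and −0.01 over all genes tested.

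In input, E2f5 read 44.0, 44.8, 44.5 and 52.2 CPM in control and 154, 138, 120 and 102 CPM in DTR cochleae. The lowest DTR library lay far above the highest control library. The LFC was 1.42 ± 0.16 (adjusted p = 3.3e-06), and E2f5 was the only member called under the fold and separation criteria for damage (LFC of at least 1), against 1.33% of all genes tested called higher and 1.01% lower. In IP it read 250, 218, 232 and 149 CPM in control and 335, 336, 370 and 234 CPM in DTR cochleae. Here the groups overlapped through DTR IP replicate 4, which lay between control replicates, yet DTR was higher in 4 of 4 same-numbered pairs, and the LFC was 0.62 ± 0.16 (adjusted p = 0.010). In IP no member met the stricter criteria (1.12% of all genes tested higher, 1.34% lower).

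The change of E2f5 was larger in input than in IP in 4 of 4 replicate numbers, with a difference of −0.80 ± 0.22 between the LFCs. In the test of this difference, run on all genes, the adjusted p was 0.45 (unadjusted 0.0021), and no member passed. All genes gave 2 calls, 0.0118% of those tested, and 881 (5.18%) at an unadjusted p under 0.05. DESeq2 on the read counts recovered from the CPM called the E2f5 difference (−0.92, adjusted p = 0.030), with 49 calls over all genes, and edgeR on the same reads called 0 genes.

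E2f7 rose in input from 3.05, 3.46, 2.20 and 2.17 CPM in control to 2.95, 5.98, 5.72 and 7.89 CPM in DTR cochleae. DTR replicate 1 lay within the control range while the other 3 were above it (LFC 0.80 ± 0.25, adjusted p = 0.042). The call was close to the threshold. Leaving out any 1 of the 8 libraries other than DTR replicate 1 ended it, with values from 0.62 to 0.87 and adjusted p up to 0.13, and without DTR replicate 1 the value was 1.09 and the adjusted p 0.0021. With only the input groups in the fit the adjusted p was 0.079, and with no filter on low values 0.10. In IP E2f7 read 3.05, 3.43, 3.76 and 1.83 CPM in control and 5.46, 5.30, 3.71 and 4.67 CPM in DTR cochleae, overlapping only through DTR replicate 3 (LFC 0.47 ± 0.25, adjusted p = 0.23).

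E2f8 and E2f1 lay higher in DTR libraries without passing. E2f8 read 3.36, 2.42, 2.64 and 2.46 CPM in control input and 4.19, 4.85, 4.37 and 4.87 CPM in DTR input. These groups did not overlap, as was so for 11.6% of all genes tested in this direction and 7.73% in the other, but the adjusted p was 0.14 (LFC 0.57 ± 0.24). It was 0.047 with only the input groups in the fit, and 0.048 in edgeR with the replicate number as a block (0.75). In IP, where E2f8 read 4.25, 4.63, 3.38 and 1.57 CPM in control and 6.07, 6.59, 3.18 and 4.41 CPM in DTR cochleae, the groups overlapped (LFC 0.39 ± 0.24, adjusted p = 0.31).

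E2f1 read 10.4, 9.72, 10.1 and 6.87 CPM in control IP and 16, 13.1, 10.5 and 13.3 CPM in DTR IP. The groups touched without overlapping, as was so for 10.5% of all genes tested in this direction and 6.54% in the other, and replicate 3 showed almost no difference. The LFC was 0.42 ± 0.16 (adjusted p = 0.086). Blocking on the replicate number left the LFC at 0.42 with an adjusted p of 0.033, so this call depends on whether the pairing is used, and without DTR IP replicate 3 the LFC was 0.51 (adjusted p = 0.046). In input the LFC was 0.34 ± 0.16 (adjusted p = 0.20), higher in DTR in 4 of 4 pairs.

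The remaining members did not pass the test in either source. E2f2 had an LFC of −0.43 ± 0.22 in IP (adjusted p = 0.21), lower in DTR in 4 of 4 pairs, and −0.16 ± 0.22 in input. E2f3, E2f4, E2f6 and Rb1 lay between −0.16 and −0.06 in IP and between −0.08 and 0.11 in input. Rbl1 stood at 0.31 ± 0.20 in IP (adjusted p = 0.32) and 0.12 ± 0.20 in input, and Rbl2 at −0.23 ± 0.14 and −0.20 ± 0.14.

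**Figure D3:**
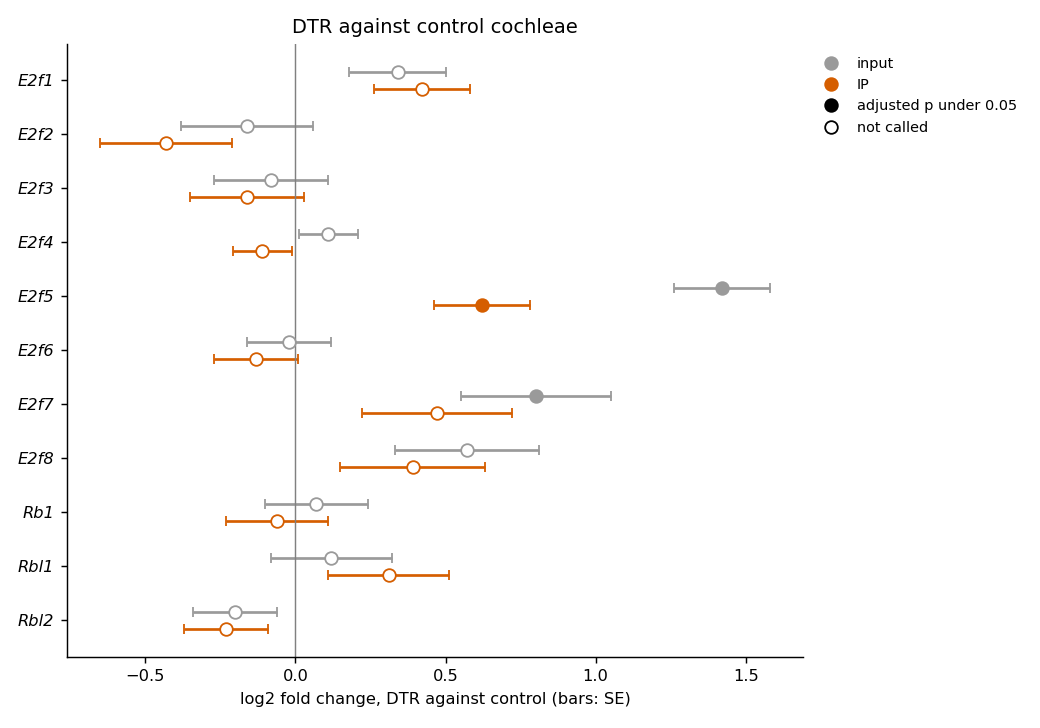
Points give the log2 fold change of DTR against control cochleae for each member and Rbl2 in input (grey) and IP (orange), with bars for the SE and filled points for an adjusted p under 0.05. E2f5 stands apart in input at 1.42 and is called in IP at 0.62, E2f7 is called in input, and all other points are open.

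**Figure D4:**
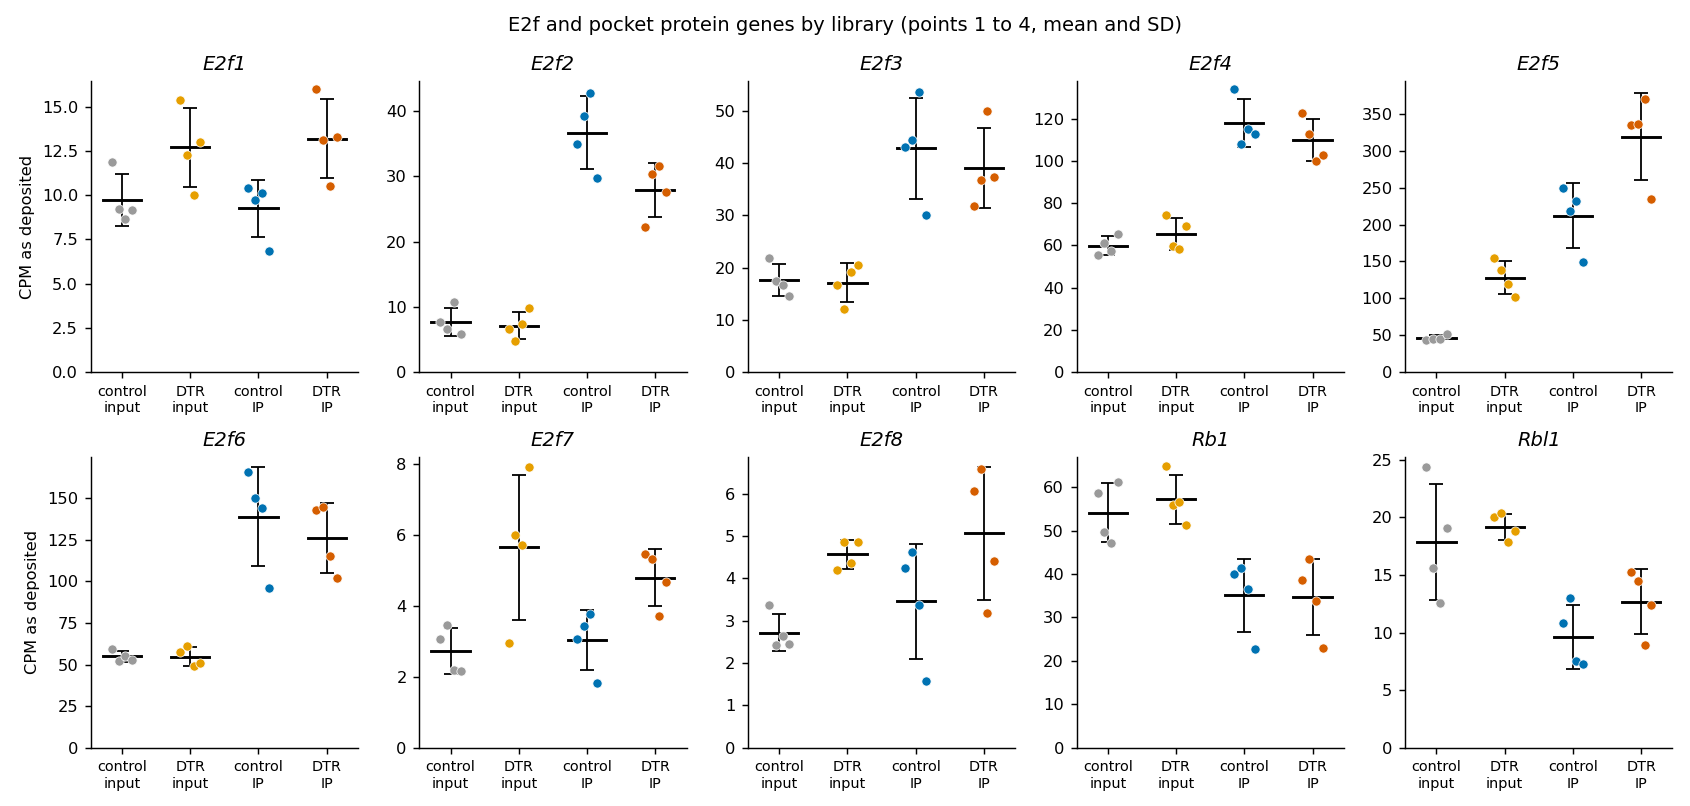
Each panel shows the deposited CPM of a member in the 4 libraries of each group, left to right by replicate number, with lines for the mean and bars for the SD. The vertical axes start at 0. Control IP replicate 4 (the rightmost blue point) is the lowest of its group for E2f1, E2f2, E2f3, E2f5, E2f6, E2f7, E2f8, Rb1 and Rbl1.

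Patterns over the 16 libraries set the members into groups. Correlations of log2 values are given as a description, since the points share pools, preparation and the 4 groups. E2f2 and E2f3 had a Pearson r of 0.961, E2f2 and E2f6 of 0.916 and E2f4 and E2f6 of 0.942, and E2f2 ran opposite to Rb1 (−0.81) and Rbl1 (−0.852). E2f1 was closest to E2f8 (0.719), and E2f7 to E2f8 (0.751). Among all genes tested, the 3 most like E2f5 were Znrf3 (0.978), Efna3 (0.977) and Pim1 (0.976). Those most like E2f1 were Asf1b (0.923), Snx8 (0.894) and Fam83d (0.879), and like E2f8 Susd6 (0.853), Homer1 (0.837) and Ccna2 (0.835). E2f2 was most like Nagpa (0.987), Lipt2 (0.982) and Rgma (0.98), Rb1 most like Bmi1 (0.975), Tram1 (0.953) and AI593442 (0.952), and Rbl1 most like Eri1 (0.942), Opcml (0.933) and Add3 (0.932).

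Of 10 genes for dimer partners, Rbl2 and the MuvB and MYB proteins that join pocket proteins in the DREAM complex, 2 were higher (20%, against 19.2% of all genes tested) and 6 lower (60%, against 20.5%) in control IP than in control input, and after damage 1 rose in IP (10%, against 8.29%). Tfdp1, the main DP partner, did not pass in any comparison, with 82.8 ± 5.45 CPM in control input and 95.1 ± 11.7 CPM in control IP. Lin37 was higher in the IP (LFC 0.57), and Foxm1 (−0.82) and Mybl2 (−0.77), activators of mitotic genes, were lower. Mybl2 rose after damage from 2.96 ± 1.25 to 9.04 ± 2.75 CPM in IP (LFC 1.37, adjusted p = 0.00016), and it was the only gene of this list called in input too (LFC 0.83). Blocking on the replicate number gave 3 called in input, and none was called there with number 4 left out in all groups or without control input replicate 4.

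Of the 15 cyclins, kinases and inhibitors that set the phosphorylation of pocket proteins, 14 were tested, and 8 were higher (57.1%, against 19.2% of all genes tested) and 2 lower (14.3%, against 20.5%) in control IP than in control input. Cdkn1b (p27), the inhibitor known for holding supporting cells in quiescence, led with 29.1 ± 5.18 CPM in input and 79.6 ± 19.7 CPM in IP (LFC 1.41), followed by Ccnd3 (1.27), a D-type cyclin. Cdkn2c (−0.82) and Cdkn2d (−0.44), inhibitors of the D-type kinases, were lower. After damage 3 of the 14 rose in IP (21.4%, against 8.29%) and 1 fell (7.14%, against 7.27%), where DESeq2 called 2 lower and edgeR with the replicate block 3. The gene that fell was Cdkn1b, to 42.0 ± 9.34 CPM in DTR IP (LFC −0.95, adjusted p = 0.00098), and it fell in input as well (LFC −1.21). Those that rose were Cdkn1c (0.72), Ccnd2 (0.49) and Cdkn1a (0.32), of which Cdkn1a was called in 8 of its 22 alternatives. Cdkn2a was at or near 0 in every group and was not tested.

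Of 15 corepressors, 3 were higher (5 when blocking on the replicate number) and 2 lower in control IP, or 20% and 13.3% against 19.2% and 20.5% of all genes tested. After damage 2 were higher (13.3%, against 7.1%) and 1 lower (6.67%, against 5.33%) in input. In IP 3 rose after damage (20%, against 8.29%) and none fell, where edgeR and DESeq2 called 2 lower. Those that rose in IP were Mga (0.69), a partner of E2f6 in its Polycomb complex, Kdm5a (0.61), a histone demethylase that binds Rb1, and Arid4a (0.39), another Rb1 binder, which was called in 10 of its 22 alternatives.

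Most of the listed targets were called higher in IP after damage. Of 27 S phase genes under E2F control, 15 were higher and none lower in DTR IP than in control IP (55.6%, against 8.29% of all genes tested), with a median LFC of 0.52, and in input 6 were higher (22.2%, against 7.1%), so that 12 passed the test in neither direction in IP and 21 in input. Tk1, thymidine kinase, rose from 5.67 ± 0.513 to 18.2 ± 1.45 CPM (LFC 1.47), and Rrm2, a subunit of ribonucleotide reductase, from 8.47 ± 1.37 to 25.4 ± 7.16 CPM (1.41). With only the IP groups in the fit 10 of the 27 were called. Of 19 G2/M genes known as DREAM targets, 18 rose in IP (94.7%, against 8.29% of all genes tested) and 15 in input (78.9%, against 7.1%). Their median LFCs were 1.59 and 0.90, and Ccnb2 (2.01), Ube2c (1.95) and Cenpf (1.75) led in IP. The same lists lay low in control IP relative to control input. There 13 S phase (48.1%) and 15 G2/M genes (78.9%) were lower, against 20.5% of all genes tested. In each list 1 gene was higher (3.7% and 5.26%, against 19.2%). These were Cdc25a (0.94) and Mki67 (0.55), the latter called in 19 of its 23 alternatives. Mcm3 (−1.59) and Kif11 (−2.38) were the lowest of the lists. An E2F core stood in promoters of 16 of the 22 S phase genes and 3 of the 15 G2/M genes that had an entry.

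**Figure D5:**
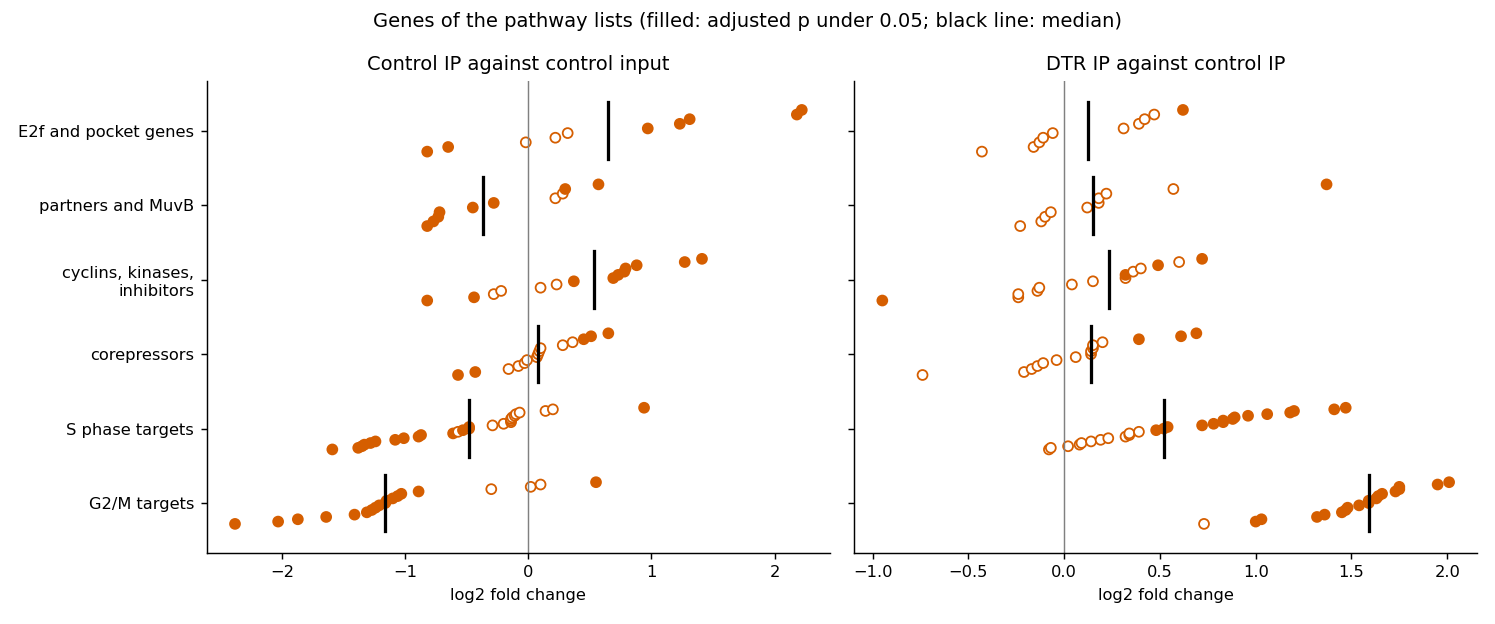
Each point is a gene, placed by its log2 fold change in control IP against control input (left) or DTR IP against control IP (right), with filled points for an adjusted p under 0.05 and a black line at the list's median. On the right the S phase and G2/M genes lie at medians of 0.52 and 1.59 while the E2f and pocket genes centre on 0.13.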

How the data were processed

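RNA was measured in 16 libraries (4 a group). CPM for each gene and library were deposited by the authors. The paper gives alignment to GRCm38 with HISAT2 and counting with HTSeq, whereas the submitters' processing notes name TopHat. The annotation release and strand setting are not given in the sources used here. All values above 0 came out as whole reads (tolerance 0.01 reads), and these read counts were used in edgeR and DESeq2. CPM were quantile normalized and log2 transformed with a pseudocount of 0.5, and limma (3.58.1, under R 4.3.3) was run across the libraries with a trended prior variance on the 16994 genes that reached 0.5 CPM in every replicate of some group. Tests are two-sided and calls are at a Benjamini-Hochberg adjusted p under 0.05. The fold and separation criteria were the study's, with a floor of 1.08 CPM. edgeR (4.0.16), DESeq2 (1.42.0), other normalizations, pseudocounts and filters, a replicate block, removal of length or GC trends, and leaving out libraries were the alternatives. Same-numbered samples deviated together from their group means (r of 0.288 to 0.564 in all 4 comparisons). Means for other numbers were −0.231 to −0.0875, but deviations within a group sum to 0, which pushes these means below 0. They are thus no separate evidence of pairing. Control IP replicate 4 was closer to another number of control input than to its own (r of 0.288). With this limit, the numbers were taken as pairs in the counts of pairs and in the replicate block, which was an alternative. The main fit used the group only, so its p-values do not use the pairing. IP and input of a number also share a pool. The labels name no animals, and p-values measure the spread between these pools. Gene positions are from GENCODE M21. The limits from 3 reads cover counting error only. The members and gene lists were chosen with earlier results of these data known. Named from each list were up to 3 called genes of largest LFC in each direction in control IP against control input and DTR IP against control IP, and for 6 members the 3 most correlated genes. A gene that this rule names is not reported here. The fit was tested on simulated data in which libraries varied independently, so that test did not cover shared pools or replicate numbers. DESeq2, the tool of the study, was an alternative because the values were deposited as CPM, although the read counts it needs could be recovered.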

Additional observations from a re-analysis of the deposited data

Results flagged for a closer look

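E2f5 in control input replicate 4, at 52.2 CPM, stood apart from the other 3 libraries of its group, which lay between 44.0 and 44.8 CPM. The gap was 0.896 of the group's range, above Dixon's critical value for 4 samples. It was the 1 case among 40 sets of a member and a group, and chance flags about 1 in 20 such sets. Leaving out each library in turn, this one among them, gave LFCs of 1.34 to 1.53 for E2f5 in DTR input against control input, and all were called.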

How the results depend on the processing

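Of the members' values under other settings, 1156 kept their direction and side of the threshold, 11 lost the call, 6 gained it and 27 changed sign. Those that changed sign were uncalled and near 0. With number 4 left out in all groups (chosen after seeing the data, as were the GC trend and edgeR with the block), E2f1 in control IP against control input was 0.04 and E2f7 in DTR IP against DTR input was 0.05 (E2f7 in DTR input against control input 0.55, adjusted p = 0.25). With the GC trend removed, E2f1 in DTR IP against DTR input was -0. Leaving out libraries in turn, values that changed sign ranged in DTR IP against control IP from −0.22 to 0.11 for Rb1, and in DTR input against control input from −0.33 to 0.02 for E2f2, −0.17 to 0.07 for E2f3, −0.08 to 0.01 for E2f6 and −0.02 to 0.29 for Rbl1. In control IP against control input E2f1 ranged from −0.07 to 0.08. In DTR IP against DTR input E2f1 ranged from −0.03 to 0.14, E2f7 from −0.4 to 0.07 and E2f8 from −0.01 to 0.32. In the difference of the changes E2f1 ranged from −0.03 to 0.17, E2f3 from −0.23 to 0.05 and Rb1 from −0.29 to 0.04. The cause was not tested.

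Adding the fold and separation criteria, which by construction only remove calls, took the genes called from 2645 to 418 (DTR IP against control IP), 2112 to 397 (DTR input against control input), 6749 to 212 (control IP against control input) and 6698 to 166 (DTR IP against DTR input), and the members called to 0, 1, 2 and 0. In DTR IP against control IP 2 members were called with the replicate block, in limma and in edgeR, and 1 to 2 with libraries left out. In DTR input against control input 1 was called with no filter on low values or with number 4 left out, 1 to 2 with libraries left out, and 3 in edgeR with the replicate block, which added E2f8. In DTR IP against DTR input 6 to 7 were called with libraries left out. The difference of the changes had 2 genes called, and 1 without quantile normalization, 0 with a pseudocount of 0.1, with no filter, in edgeR and with number 4 left out, 16 with the replicate number as a block, 47 with the pool as a block, 24 with edgeR and the block, 49 in DESeq2 and 0 to 7 with libraries left out, and 1 member in DESeq2. The replicate block in limma changed no call of a member other than E2f1 in DTR IP against control IP. No scaling moved the median of all genes by more than 0.061. Depth limited E2f7 and E2f8 most, at 48 to 259 reads per library.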
